A study of Homo sapiens with 6 samples.

Results

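Thymidine glycol (Tg) sites that lie around large gene-free stretches of the chromosomes, or on contigs placed outside the main chromosomes, are described here in HEK293T cells. A site was taken when it was on a contig other than chromosomes 1 to 22, X, Y and M. It was also taken when its midpoint on chromosomes 1 to 22 fell inside, or within 1 Mb of, a stretch of more than 2 Mb with no gene of any biotype in the RefSeq GRCh38 gene table. By this rule 238 of 9373 double-knockout sites (2.54%, exact binomial 95% interval 2.23% to 2.88%) and 145 of 3688 wild-type sites (3.93%, 3.33% to 4.61%) belonged, 383 of 13061 in all. The rule used position alone, so the enrichment, the reads and the overlap between the lists are free of it.

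HEK293T is a human embryonic kidney line with SV40 large T antigen. The labels list 2 NTHL1-labelled libraries of cells with the genotype NTHL1-/-,NEIL1-/-, 2 labelled libraries of wild-type cells, and 2 inputs, 1 of each genotype; no cells were treated, and the labels do not say whether the knockout is a single clone. In DPC-Seq, NTHL1 protein is fixed to fragmented DNA where it has removed a Tg, and the bound fragments are enriched and sequenced. NTHL1 also acts on other oxidised pyrimidines. There is 1 deposited list for each genotype, so no value here has a spread between replicates and no comparison between genotypes has a p-value. Intervals cover counting error only, and those of medians also treat sites as independent, although sites of a repeat array can share sequence.

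Tg is an oxidised thymidine that blocks DNA polymerases, and the DNA glycosylases NTHL1 and NEIL1 remove it as the opening step of base excision repair. The long gene-free parts of human chromosomes are mostly centromeres and the heterochromatin beside them, built from tandem satellite repeats, and the short arms of the acrocentric chromosomes, which carry the ribosomal RNA gene arrays. The assembly holds a fraction of these repeats, so reads from many copies can pile up on the few copies it has, and contigs hold sequence that could not be placed, could not be ordered on its chromosome, or is an alternate version of a placed locus. A genome sequence was not used here, so satellite content and assembly gaps were not checked, and no site sequence is shown. The gene table names no contig, so contig sites were not assigned to genes. It also files gene records of some contigs under their parent chromosome, which bounds the stretches at the start of chromosomes 13, 14, 15, 21 and 22, and no listed site lies inside those.

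The members fell into 3 kinds that differed in how their numbers compared between the genotypes. Inside the stretches lay 65 double-knockout sites (Poisson interval 50.2 to 82.8) and 59 wild-type sites (44.9 to 76.1), a ratio of 1.10 (0.762 to 1.59). Within 1 Mb of a stretch lay 91 double-knockout and 29 wild-type sites, a ratio of 3.14 (2.05 to 4.95). On contigs lay 82 double-knockout and 57 wild-type sites, a ratio of 1.44 (1.01 to 2.05). All members together had a ratio of 1.64 (1.33 to 2.03), and all other sites a ratio of 2.58 (2.48 to 2.68), with 9135 double-knockout and 3543 wild-type sites. Without the 4 largest groups of sites, a setting added after seeing the data, the members had 1.95 (1.52 to 2.51), an interval that reached that of the other sites. The intervals of the stretch interiors and of the contigs lay below that of all other sites, whereas the interval of the flanks included it. By an estimate from the lowest backgrounds, the double-knockout data were deeper, by 1.61 times per base pair of fragment. A ratio of list sizes is therefore not a ratio of Tg content.

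**Figure D1:**
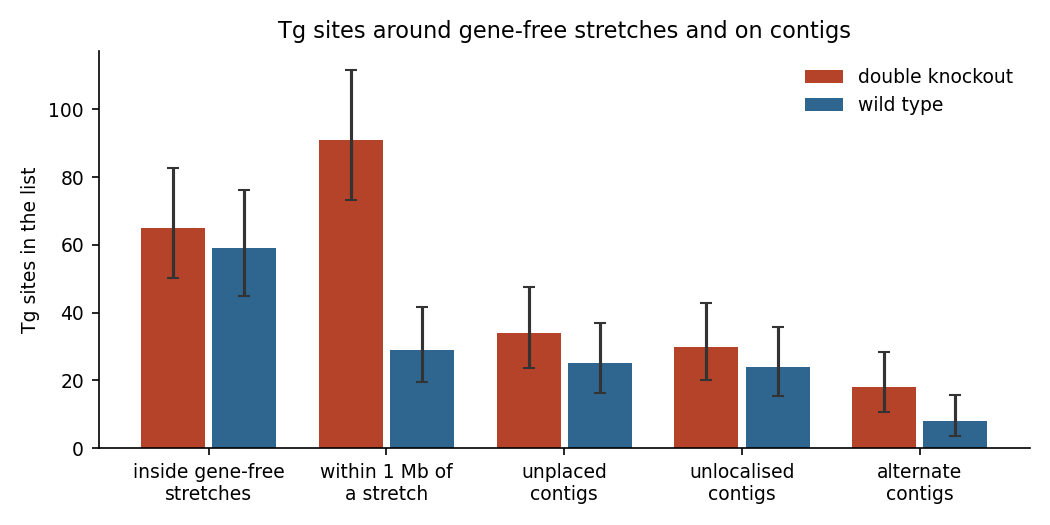
Number of Tg sites in the double-knockout and wild-type lists (vertical axis) inside gene-free stretches, within 1 Mb of them and on the 3 kinds of contig. Bars are counts and error bars exact Poisson 95% intervals, which cover counting error only; the flanks hold 91 double-knockout and 29 wild-type sites, while the interiors hold 65 and 59.

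The gene table left 26 such stretches, from 2.02 Mb to 21.7 Mb long and 168.7 Mb in all. Double-knockout sites lay inside 9 of them and wild-type sites inside 12; with the flanks, 22 stretches had a double-knockout site and 17 a wild-type site. No site of either list lay in or near the stretch of chromosome 6, that of chromosome 9, the first of chromosome 14 or the first of chromosome 21. Flanks held more double-knockout than wild-type sites at 16 of 19 stretches with any flank site and fewer at 1. Of the 12 stretches with an interior site, 5 had more double-knockout sites and 5 more wild-type sites.

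Sites were sparse for the length of the stretches. The interiors held 0.385 double-knockout sites per Mb (0.297 to 0.491) and 0.350 wild-type sites per Mb (0.266 to 0.451). The remaining span of chromosomes 1 to 22 held 3.25 double-knockout and 1.27 wild-type sites per Mb, so the interiors had 0.118 times its density in the double knockout and 0.275 times in wild type. The flanks had 1.99 double-knockout and 0.633 wild-type sites per Mb, 0.610 and 0.497 times the same span. These lengths include any assembly gap, where no read can map.

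Many interior sites lay near an edge of their stretch, mostly in 3 dense groups. Within 100 kb of an edge, which is 3.08% of the length of the stretches, lay 42 of 65 double-knockout sites (64.6%, 51.8% to 76.1%) and 39 of 59 wild-type sites (66.1%, 52.6% to 77.9%). Of these edge sites, 35 double-knockout and 32 wild-type sites lay in the largest interior groups of chromosomes 1, 16 and 21, so the intervals, which take sites as independent, are too narrow. Outside those groups 7 of 29 double-knockout (24.1%) and 7 of 24 wild-type interior sites (29.2%) lay within 100 kb of an edge. The median distance to the nearest edge was 78.7 kb in the double knockout and 81.3 kb in wild type. From 0.8 to 1 Mb, just inside the outer limit, lay 15 double-knockout and 3 wild-type sites, with median folds of 4.56 in the double knockout and 4.50 in wild type. From 1 to 1.2 Mb, just outside it, lay 22 double-knockout and 9 wild-type sites, with median folds of 6.09 in the double knockout and 5.17 in wild type.

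The 10 stretches with the most sites differed in where the sites lay. The longest stretch, 21.7 Mb on chromosome 1 between the pseudogene EMBP1 and LOC101929814, held 19 double-knockout and 21 wild-type interior sites, with 1 double-knockout site in its flanks. The stretch of chromosome 21 between IGHV1OR21-1 and ANKRD30BP2 held 14 double-knockout and 8 wild-type interior sites, and 6 and 1 in its left flank. On chromosome 16 the stretch that ends at ANKRD26P1 held 12 double-knockout and 10 wild-type interior sites, with 5 and 2 in its flanks. On chromosome 17, between WEE1P2 and LOC100422478, there were 6 double-knockout and 2 wild-type interior sites and 7 and 2 flank sites. Chromosome 10, between CHEK2P5 and KSR1P1, ran the other way inside, with 3 double-knockout and 6 wild-type sites, and had 6 and 4 in its flanks. On chromosome 5 all sites were interior, 6 in the double knockout and 5 in wild type.

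The other 4 of these stretches had most of their sites in the flanks. Chromosome 19 had no interior site in either list and 12 double-knockout flank sites against 1 wild-type flank site. The first stretch of chromosome 22, which ends at LOC124905154, had 12 double-knockout and 4 wild-type flank sites, all on its right. Chromosome 4, between SNX18P25 and DCUN1D4, had 9 double-knockout and 2 wild-type flank sites, and 1 interior site in each list. Chromosome 7, left of LOC102723842, had 8 double-knockout and 3 wild-type flank sites, with 1 wild-type interior site. The 5 double-knockout flank sites of chromosome 13 had no wild-type site beside them, although chr13:19140539-19141041 had 18 reads and a fold of 8.44. On chromosome 20, chr20:25601085-25602126 of the double knockout had a fold of 7.65, against 7.64 at its wild-type partner, and chr20:26136443-26137104 had 7.41, against 6.73.

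**Figure D2:**
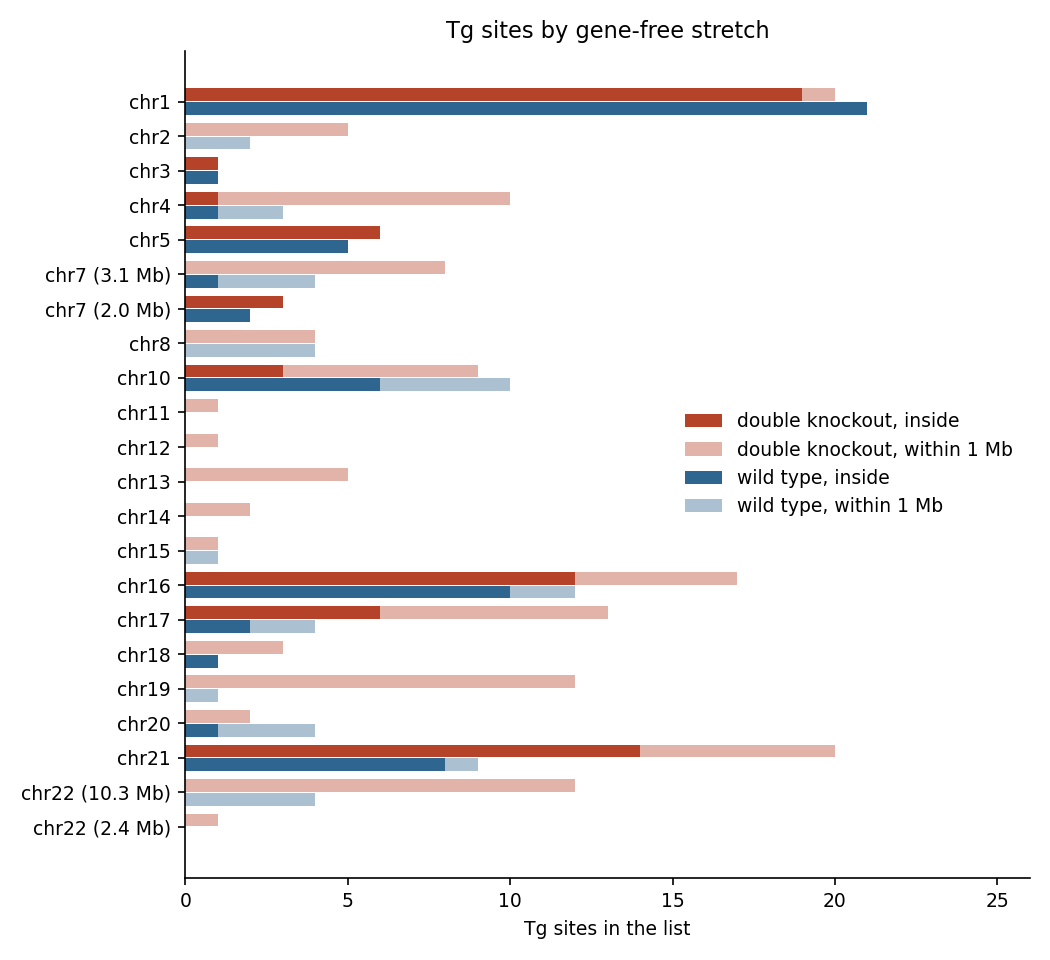
Number of Tg sites (horizontal axis) for each gene-free stretch with at least 1 site, double knockout above wild type; dark bars are sites inside the stretch and pale bars sites within 1 Mb of it. Chromosome 1 has 19 double-knockout and 21 wild-type interior sites, whereas chromosome 19 has 12 double-knockout and 1 wild-type site in the flanks alone.

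The members had a lower fold enrichment than other sites and stood on a higher background. The deposited fold enrichment is reads at the summit over the caller's local background, and is the authors' own value, used within its list. Its median was 3.85 in double-knockout members and 4.12 in wild-type members, while all other sites had 4.94 in the double knockout and 5.16 in wild type. Inside the stretches it was 3.13 in the double knockout and 4.03 in wild type, and on contigs 3.54 in the double knockout and 3.91 in wild type. The flanks were closer to the rest, at 4.63 in the double knockout and 4.94 in wild type.

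Whole reads and the background were recovered from the fold and the deposited p of each site, and the background is given as a multiple of the lowest in the same list. Its median was 3.17 in double-knockout members and 7.71 in wild-type members, against 2.05 and 2.35 in all other double-knockout and wild-type sites. Inside the stretches it was 4.78 in the double knockout and 8.05 in wild type. On contigs it was 4.62 in the double knockout and 13.2 in wild type, and in the flanks 2.23 in the double knockout and 2.35 in wild type. These medians cover different sites in the 2 lists. At the 102 wild-type members that overlapped a double-knockout site, the median ratio of double-knockout to wild-type background, scaled by depth alone, was 1.00. It was 1.02 on contigs, 1 inside the stretches and 1.04 in the flanks. At 28 of the 102 the 2 scaled backgrounds were the same to within 0.1%. The control behind each list is not given and may be the same for both. These ratios are therefore not a comparison of the genotypes. At most the background reached 135 in the double knockout and 143 in wild type, both at the same locus of chromosome 3. The background enters the fold, so they are not separate measures. Under 2 times the lowest background the median fold was 5.34 in double-knockout members and 5.33 in other double-knockout sites. In wild type it was 5.49 and 5.70. From 2 to 5 times it was 3.94 and 4.57 in the double knockout and 4.39 and 4.95 in wild type. From 5 to 10 times it was 3.13 and 3.80, and 3.81 and 4.11. At 10 times or more it was 2.74 and 3.04, and 3.58 and 4.03.

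Members were 53 of the 91 double-knockout sites (58.2%, 47.4% to 68.5%) and 61 of the 96 wild-type sites (63.5%, 53.1% to 73.1%) whose background was at least 10 times the lowest. Outside the members, such sites lay in the double-knockout list on the mitochondrial genome (9), chromosome 16 (12) and chromosome 21 (6), with 11 elsewhere. In the wild-type list they lay on the same 3 (10, 12 and 6), with 7 elsewhere. Ranked by reads, 42 of the first 100 double-knockout sites and 50 of the first 100 wild-type sites were members. Ranked by fold, 1 double-knockout and 2 wild-type members were among the first 100.

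**Figure D3:**
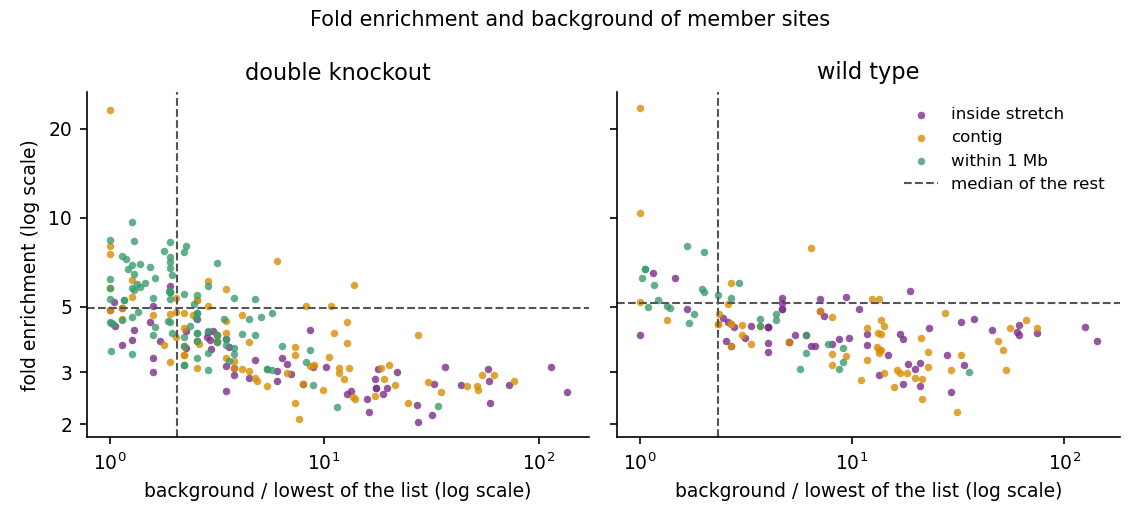
Deposited fold enrichment (vertical, log scale) against background as a multiple of the lowest of the same list (horizontal, log scale) for each member site, double knockout left and wild type right; dashed lines are medians of all other sites. Interior and contig sites run far to the right, up to 135 in the double knockout and 143 in wild type, with most folds below the dashed line, while most flank sites stay near the crossing of the lines.

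The ratio of list sizes fell as the background rose, in members and in other sites alike. Under 2 times the lowest background there were 72 double-knockout and 20 wild-type members, a ratio of 3.6 (2.17 to 6.24), beside 3.77 (3.54 to 4.03) in other sites. From 2 to 5 times there were 84 double-knockout and 37 wild-type members, a ratio of 2.27 (1.52 to 3.44), beside 2.03 (1.93 to 2.13). From 5 to 10 times, 29 double-knockout and 27 wild-type members gave 1.07 (0.614 to 1.89), beside 1.45 (1.12 to 1.89). At 10 times or more, 53 double-knockout and 61 wild-type members gave 0.869 (0.590 to 1.28), beside 1.09 (0.668 to 1.77). Within each of these 4 classes the interval of the members overlapped that of the other sites, but the intervals of the members were wide. In order of rising background the ratio was 3.5, 1.19, 0.615 and 0.923 inside the stretches. It was 3.25, 2.5, 1.71 and 0.794 on contigs and 3.75, 3.89, 1.29 and 2 in the flanks. Interiors thus lay below other sites in each class, with intervals that overlapped theirs. Some of these classes were small. The lowest class of the interiors held 14 double-knockout and 4 wild-type sites, with an interval of 1.10 to 14.6. The highest class of the flanks held 2 double-knockout sites and 1 wild-type site. A larger share of members than of other sites stood on a high background. The part of the background in the ratio of all members, 1.64, was not tested.

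**Figure D4:**
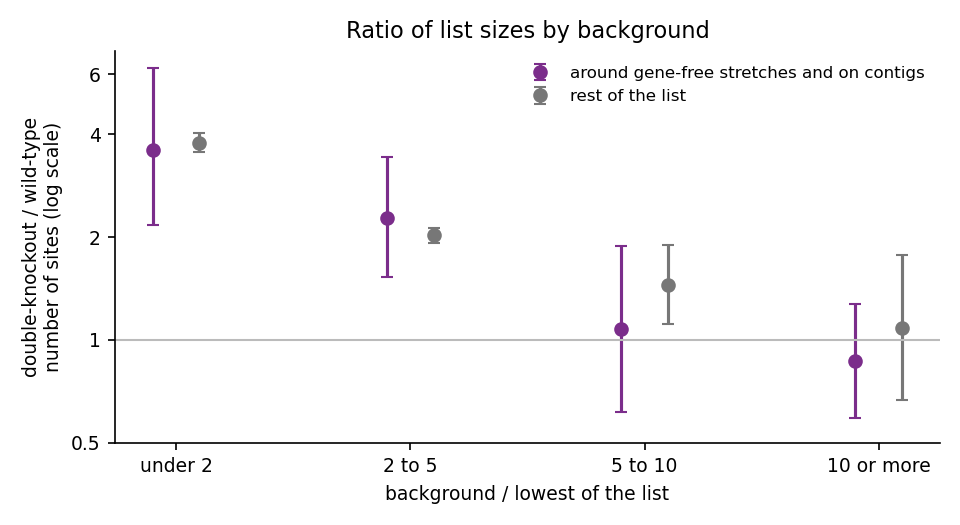
Double-knockout over wild-type number of sites (vertical, log scale) by class of background as a multiple of the lowest in the list (horizontal), for sites around gene-free stretches and on contigs and for the rest of the list. Points are ratios and bars 95% intervals of counting error; members go from 3.6 in the lowest class to 0.869 in the highest, and each interval overlaps that of the rest.

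The share of sites that overlapped a site of the other list by at least 1 bp (a partner) was 40.3% of double-knockout members (96 of 238, 34.0% to 46.9%), against 28.3% of all double-knockout sites. Of wild-type members 70.3% had a partner (102 of 145, 62.2% to 77.6%), against 75.3% of all wild-type sites. Inside the stretches the partner share was 50.8% of double-knockout sites and 54.2% of wild-type sites. In the flanks it was 24.2% of double-knockout sites and 79.3% of wild-type sites, and on contigs 50.0% of double-knockout and 82.5% of wild-type sites. The wild-type share inside the stretches (40.8% to 67.3%) lay below the interval of all other wild-type sites (74.0% to 76.9%). With a background of at least 10 times the lowest, 94.3% of double-knockout and 91.8% of wild-type members had a partner, beside 92.1% of other double-knockout and 97.1% of other wild-type sites in that class. On a lower background, from 2 to 5 times the lowest, a partner was found for 26.3% of 19 double-knockout and 25% of 16 wild-type interior sites, beside 36.3% of other double-knockout and 82.0% of other wild-type sites. From 5 to 10 times it was found for 62.5% of 8 double-knockout and 38.5% of 13 wild-type interior sites, beside 56.6% of other double-knockout and 96.0% of other wild-type sites.

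Part of the sites of these regions came in dense groups, and the grouping of all other sites was not computed. Joined at gaps of up to 50 kb, they formed 120 groups, of which 9 held at least 8 sites of both lists together and took in 72 double-knockout sites (30.3% of double-knockout members) and 69 wild-type sites (47.6%). A site stood alone in 56 groups, 46 of them double-knockout and 10 wild-type sites. The largest group, chr1:143184936-143266664, had 13 double-knockout sites with folds from 2.2 to 4.54 and 18 wild-type sites with folds from 3.44 to 6.49. The group chr21:10653258-10728036 had 14 double-knockout sites of 13 to 19 reads and 8 wild-type sites of 10 to 21 reads, with 3 partners in each list. In the group chr17:26803835-26885998 there were 6 double-knockout sites and 2 wild-type sites.

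The group with the deepest pile of reads was chr16:46380651-46401726, where 9 double-knockout sites each had a partner among 9 wild-type sites. Its strongest site, chr16:46389549-46390965 in the double knockout and chr16:46389537-46391024 in wild type, had 452 double-knockout reads (411 to 496) and 400 wild-type reads (362 to 441). Divided by the ratio of lowest backgrounds of 1.69, the double-knockout reads were 0.668 times those of wild type. Another site of the group was 2385 bp wide in the double knockout and 2384 bp in wild type, with 226 double-knockout and 185 wild-type reads, a scaled ratio of 0.722. Folds of the group ran from 2.65 to 3.14 in the double knockout and from 2.69 to 4.55 in wild type, and scaled reads were below wild type at each of its 9 pairs.

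The site with the highest background, chr3:93470288-93470864 in the double knockout and chr3:93470272-93470888 in wild type, was the only interior site of its stretch in each list. It had 437 double-knockout and 405 wild-type reads, and a fold of 2.58 in the double knockout and 3.82 in wild type. On chromosome 1, a double-knockout site starting at 125179949 had 176 reads and a fold of 2.36, against 200 reads and 4.33 at its wild-type partner, a scaled ratio of 0.520. On chromosome 5 the 5 paired sites had folds between 2.04 and 2.66 in the double knockout and between 2.57 and 3.89 in wild type. The last double-knockout site there, chr5:50351507-50351762, had 10 reads, a fold of 4.18 and no partner.

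Contigs with sites numbered 32, of which 31 carried double-knockout sites and 21 wild-type sites, 20 carried both, 11 double-knockout sites alone and 1 wild-type sites alone. The 11 unplaced contigs held 34 double-knockout and 25 wild-type sites. KI270438v1 had 8 double-knockout and 9 wild-type sites between positions 101454 and 112505, and each of the 8 double-knockout sites had a partner. Its strongest double-knockout site (109209 to 109985) had 270 reads and a fold of 2.80, against 238 reads and 4.24 at the wild-type partner. At 103896 to 104357 it had 231 double-knockout reads and a fold of 2.95, against 222 reads and 4.49 in wild type. KI270442v1 had 8 double-knockout and 4 wild-type sites, of which 2 in each list had a partner. KI270467v1 had 2 sites in each list, with 176 and 171 double-knockout reads and 123 and 139 wild-type reads in order of position.

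Scaled reads were above wild type at both KI270442v1 pairs, with ratios of 1.02 and 1.07, and at the first pair of KI270438v1, with 1.11, and below it at the other 7 pairs of KI270438v1. The widest site of KI270744v1, 2420 bp from 108504 to 110923, had 107 double-knockout reads and a fold of 5.92, and covered 2 wild-type sites of 49 and 39 reads with folds of 4.49 and 3.06. At the first of them the scaled ratio was 1.29 and at the second, whose summit lies more than 250 bp from that of the double-knockout site, 1.62. The contig held 5 double-knockout and 3 wild-type sites. Of the other unplaced contigs, GL000216v2 had 3 double-knockout and 2 wild-type sites, GL000220v1 had 2 and 3, and KI270751v1 and KI270753v1 had 1 in each list. GL000214v1 (2 sites), KI270589v1 and KI270591v1 (1 each) had double-knockout sites alone.

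The 8 unlocalised contigs, which are known to belong to a chromosome but have no place on it, held 30 double-knockout and 24 wild-type sites. KI270733v1 of chromosome 22 and GL000220v1 are known to carry copies of the ribosomal DNA repeat. KI270733v1 had 7 double-knockout sites of 29 to 74 reads and 10 wild-type sites of 21 to 47 reads, between positions 138264 and 153959. The gene table files the ribosomal RNA record RNA45SN4 at 122273 to 135645 under chromosome 22. If these are positions of KI270733v1, which the gene table does not state, all its listed sites lie beyond that record. KI270729v1 of chromosome 17 had 6 sites in each list, and KI270709v1 of chromosome 1 had 4 in each. KI270736v1 of chromosome 22 had 7 double-knockout sites, with folds from 2.08 to 3.69 and 13 to 36 reads, and no wild-type site. KI270718v1 of chromosome 9 had 1 site in each list, with a fold of 7.12 in the double knockout and 7.88 in wild type.

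The 13 alternate contigs held 18 double-knockout and 8 wild-type sites on a background of at most 4.46 times the lowest in the double knockout and 3.35 in wild type. GL383580v2, an alternate version of part of chromosome 21, carried the member with the highest fold in both lists. At positions 2632 to 3063 it had 51 double-knockout reads (38 to 67.1) and a fold of 23.1, against 40 wild-type reads (28.6 to 54.5) and a fold of 23.6 at 2651 to 3052, both at the lowest background of the list. KI270817v1 of chromosome 8 had a wild-type site with a fold of 10.3 and no double-knockout site. Sites in both lists were on KI270902v1, KI270857v1, KI270907v1, KI270865v1, KI270892v1 and KI270805v1, the last with a double-knockout and a wild-type site that did not overlap. Double-knockout sites alone were on KI270773v1, with a fold of 7.99, and on KI270927v1, KI270866v1, KI270780v1 and KI270781v1, with folds of 3.04 to 5.40.

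At shared sites the double-knockout reads were low for their depth, most of all inside the stretches. Each of the 102 wild-type members with a partner was compared with the double-knockout site over it, which made 95 double-knockout sites, of which 6 covered 2 or 3 wild-type sites. The median ratio of scaled double-knockout reads to wild-type reads was 0.788 (0.730 to 0.818) in members and 0.945 (0.936 to 0.964) at the 2674 other shared sites. Inside the stretches it was 0.660 (0.611 to 0.680, n = 32), on contigs 0.818 (0.774 to 0.930, n = 47) and in the flanks 0.906 (0.788 to 1.02, n = 23). Scaled by depth alone the median was 0.830 in members, 0.695 inside the stretches and 0.996 at other shared sites.

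Scaled reads were below wild type at 83 of 102 shared members, where 58.2% of all shared sites were, and at 32 of 32 pairs inside the stretches. The interior pairs ran from 0.505 to 0.974, and by depth alone up to 1.03, which leaves 1 pair above 1, on chromosome 5. The deposited fold was lower in the double knockout at 78 of 102 shared members, where 41.7% of all shared sites were lower, and at 32 of 32 inside the stretches. The fold is made from the same reads and their background, so it is not a separate measure of this difference. Scaled reads more than 1.5 times lower were seen at 27 shared members, where 10.2% of all shared sites passed that limit: 18 inside the stretches, 6 on contigs and 3 in the flanks. By depth alone 16 shared members passed, 11 of them inside the stretches, where 6.92% of all shared sites did. Scaled reads more than 1.5 times higher were seen at 1 shared member, the second of KI270744v1, where 5.08% of all shared sites passed. Among the 90 shared members with summits within 250 bp of each other, a setting added after seeing the data, the number was 0.

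**Figure D5:**
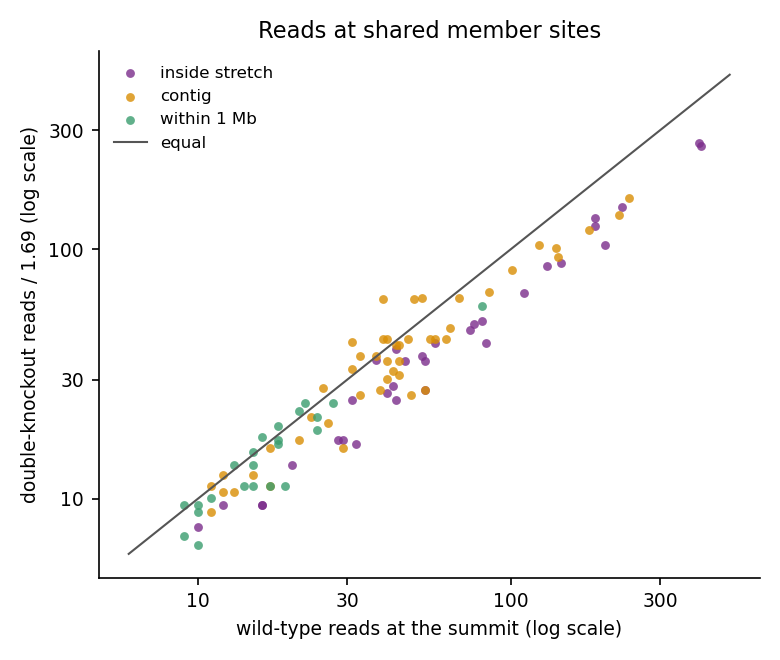
Double-knockout reads divided by 1.69 (vertical, log scale) against wild-type reads (horizontal, log scale) at the summits of the 102 shared member sites, by place. All 32 interior sites lie below the line of equal reads, with ratios from 0.505 to 0.974, and 35 of the 47 contig sites lie below it.

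Strong sites elsewhere were also low. With at least 30 wild-type reads the ratio was 0.661 (0.635 to 0.675, n = 25) inside the stretches, 0.80 (n = 34) on contigs and 0.733 (0.684 to 0.765, n = 78) at other shared sites. With a background of at least 10 times the lowest it was 0.661 (0.635 to 0.716, n = 23) inside the stretches and 0.737 (0.683 to 0.772, n = 34) at other shared sites, with overlapping intervals. With fewer than 30 wild-type reads it was 0.612 (0.591 to 0.788, n = 7) inside the stretches and 0.955 (0.945 to 0.971, n = 2596) elsewhere. The limit on reads uses wild-type reads, which also enter the ratio, and the part of this choice in the values was not tested.

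Few sites of the flanks lay in genes. The flanks border gene-free stretches by the rule, and the share of their length that genes cover was not computed. The shares below therefore do not show whether sites avoid genes there. A gene of any biotype held the midpoint of 23 of 91 double-knockout flank sites (25.3%, 16.7% to 35.5%) and 3 of 29 wild-type flank sites (10.3%, 2.19% to 27.4%), where genes held 61.7% of all other double-knockout and 59.6% of all other wild-type sites on chromosomes 1 to 22. A protein-coding gene held 9 double-knockout flank sites (9.89%) and 2 wild-type flank sites (6.90%), against 49.0% and 47.4% of the others. Of 1168 genes in the stretches' surroundings, 22 held a double-knockout site and 3 a wild-type site. By biotype these were 7 and 2 of 150 protein-coding genes, 10 and 0 of 256 lncRNA genes, and 5 and 1 of 708 pseudogenes. The totals include records of contigs filed under their parent chromosome, which could hold no contig site. How many there are was not computed, so shares of these totals are approximate. Interior sites are outside genes by the rule.

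MAL, which encodes a membrane proteolipid of T cells and myelin, held 3 double-knockout sites with folds of 5.54, 4.30 and 5.64, and no wild-type site in its 28285 bp on chromosome 2. The lncRNA gene LINC02987 on chromosome 19 also held 3 double-knockout sites, with folds of 8.26, 5.31 and 5.33, and no wild-type site. CHRNA6, a nicotinic acetylcholine receptor subunit, held 1 site in each list with a fold of 5.85 in the double knockout and 5.91 in wild type. GPT2, the mitochondrial alanine aminotransferase, had 5.36 in the double knockout and 4.56 in wild type, and the pseudogene RHPN2P1 had 6.81 in the double knockout and 8.03 in wild type. Among genes with a double-knockout site alone, the pseudogene PHF2P1 on chromosome 13 had the highest fold, 9.64. The lncRNA gene LINC02963 had 8.36, and MIB1, a ubiquitin ligase that acts on Notch ligands, had 8.04.

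Over all genes of these surroundings, 1.88% held a double-knockout site and 0.257% a wild-type site. No site of either list lay in the 7 POTE genes, the 3 NBPF and NOTCH2NL genes, the 9 ANKRD genes, the 2 TPTE and BAGE genes, the 41 zinc finger ZNF genes, the 44 olfactory receptor genes, the 3 ribosomal RNA genes or the 69 U6 and other small RNA genes among them. Of 46 LINC genes, 3 (6.52%) held double-knockout sites and 0 wild-type sites, and of 28 FRG and DUX copies the pseudogene DUXAP9 held 1 double-knockout site (3.57% of the copies). With this few sites, a count of 0 in a group of short genes says little about its Tg level. Records of contigs filed under a parent chromosome, which may include RNA45SN4, are counted in these surroundings. Contig sites were not assigned to genes, so a count of 0 at such records was set by the method.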

How the data were processed

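Sites of 2 deposited lists, 1 per genotype, were used; the submitters' processing notes name the build hg38 and the tools MACS2, Bowtie2, deepTools and bedtools. Not given in the sources used here are versions, settings, the input used as control and the way 2 libraries became 1 list. Columns follow MACS2 narrow peaks, minus the name, with 4 deposited values made by the authors: a score (10 times the −log10 q, rounded down), a fold enrichment (a ratio of reads to background), a −log10 p and a −log10 q; the largest q was 0.0489 in the double knockout and 0.0450 in wild type. The deposited offset of the summit is in bp.

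Stretches came from 56752 RefSeq genes on chromosomes 1 to 22 of GRCh38.p14, which shares coordinates with hg38. Positions count from 1. Reads and background were recovered from the fold, (reads + 1) / (background + 1), and from p, the Poisson probability of more reads than seen. This matched the deposited −log10 p to 0.001 at 100% of sites of both lists. Recovery and overlap were tested on simulated data. Reads at a summit ran from 6 to 452 in the double knockout (median 17) and from 6 to 405 in wild type (median 13), which sets the precision; library totals are unknown. Double-knockout reads were divided by the ratio of lowest backgrounds, 1.69, which holds depth and fragment length, or by depth alone, 1.61. For depth alone, 1.69 was divided by the ratio of the narrowest sites, 256 bp in the double knockout and 243 bp in wild type. Both are estimates that rest on how the caller scaled the data, which is not given. Intervals are exact Poisson or binomial at 95%, or order statistics for medians.

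No test between genotypes was possible. Members and lists were chosen with earlier results of these data known. The classes of background, the limit of 30 reads, the 50 kb gap, the minimum of 8 sites and the edge distances were set after values were seen. Named were the 10 stretches with most sites, all unplaced and alternate contigs, and sites and genes by highest q rank, fold or at least 2 sites; other places were chosen after their values were seen. Alternatives changed the flank, the minimum stretch, the site filter, the pairing and the scaling. Python 3.11.15, numpy 2.4.6, pandas 2.3.3 and scipy 1.17.1 were used.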

Additional observations from a re-analysis of the deposited data

How the results depend on the processing

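Over 12 results and 17 settings, 142 values were computed: 117 stayed within the limits set for a change, 25 moved and 0 reversed. With the flanks left out, so that interiors and contigs stay, the double-knockout count was 147, the ratio of list sizes 1.27, and the partner share 50.3% in the double knockout. In that setting the median background over that of the rest was 2.33 in the double knockout and 4.86 in wild type (1.54 and 3.29 with the flanks), the fold of double-knockout members minus that of the rest was -1.60, and the double-knockout density 0.119 times that of the rest. Without contigs, counts were 156 in the double knockout and 88 in wild type, the double-knockout background 1.24 times that of the rest, and the ratio of scaled reads 0.722. With flanks of 2 Mb the density was 0.319 times that of the rest in the double knockout and 0.419 in wild type. When sites below the wild-type median −log10 p were dropped from both lists, counts were 127 in the double knockout and 91 in wild type, backgrounds 2.10 and 5.71 times the rest, the wild-type fold minus the rest -1.80, the wild-type density 0.402 and the double-knockout partner share 47.2%. By depth alone the ratio of scaled reads was 0.830, and scaled by the median of the other shared sites 0.833.

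A further 3 settings were chosen after seeing the data: summits within 250 bp, no alternate contigs, and no site of the 4 largest groups. Without those groups, the double-knockout background was 1.24 times that of the rest and the density 0.172 times in the double knockout and 0.194 times in wild type. The cause of these shifts was not tested, beyond the fewer sites that such settings leave. No paired analysis was possible because each genotype has 1 deposited list; for the same reason no library could be left out. Dividing the background by the median of the rest gives the same value by construction. The lists limit what can be seen: sites under the caller's threshold are not in them.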
